A study of Homo sapiens with 12 samples.

Results

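The genes described here were 181 expressed genes named ZNF followed by a number, which encode zinc finger proteins of the human genome. A gene was taken when its name had this form in both deposited tables and its mean level in the NC libraries was at least 5 TPM (a transcript level corrected for transcript length and library size) in each table. Of 515 such names present in both tables, 334 lay under that level, and 4 further names that reached it were pseudogenes and were left out. The 181 members were chosen from 60558 genes listed in both tables, of which 10102 reached the same TPM level. Because the NC level chose the members, their NC levels are a description and are not tested. The members nearest above the limit were ZNF267, ZNF264 and ZNF778, with mean NC TPM of 5.87, 5.93 and 9.65 in the NONO experiment and 5.04, 5.05 and 5.06 in the PKM2 experiment. Just below it lay ZNF140, ZNF577 and ZNF354B, at 5.38, 5.21 and 5.10 in the former and 4.96, 4.93 and 4.90 in the latter.

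RNA-seq was performed in MDA-MB-231, a triple-negative breast cancer cell line with mesenchymal features, in 2 experiments. In the first, 3 NC libraries were set against 3 libraries with knockdown of NONO, a nuclear RNA- and DNA-binding protein of paraspeckles. In the second, 3 other NC libraries were set against 3 libraries with knockdown of PKM2, the pyruvate kinase isoform made from the PKM gene. Genes were silenced by transient siRNA transfection, the NC cells are labelled WT, and the methods describe NC as a negative control siRNA. All 12 libraries come from this 1 line, the time after transfection and the siRNA used for the libraries are not given in the sources used here, and nothing says whether the repeats were separate cultures, so p-values measure the spread between these libraries only. In bulk RNA, fewer expressing cells and less RNA per cell cannot be told apart.

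Most ZNF proteins carry repeated C2H2 zinc fingers, each a short fold held by a zinc ion, and neighbouring fingers are joined by a short conserved linker. Arrays of fingers read DNA sequence base by base. Many members also carry a KRAB domain at the start of the protein, which recruits TRIM28 (KAP1) and through it SETDB1, HP1 proteins and histone deacetylases, so that heterochromatin forms where the fingers bind. KRAB zinc finger genes lie in clusters of tandem copies, above all on chromosome 19, and are best known for silencing transposable elements. Other ZNF proteins activate promoters, bind RNA or act in ribosome quality control, and share only the name and the zinc-binding fold. By the domain entries in the deposited tables, 87 members carried KRAB, 94 did not, and 11 carried SCAN, a domain that pairs zinc finger proteins with each other. Carrying or lacking KRAB or SCAN means these entries throughout, and a member without an entry may still have the domain. Counted in the longest coding sequence of each gene (GENCODE 29, GRCh38), the members held between 0 and 33 C2H2 fingers, with a median of 9, and 7 members held none that matched the finger pattern.

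A feature of these coding sequences, by which members are grouped further below, is shown first. The 7-base word GAAACCT pairs with bases 2 to 8 of the antisense strand of 1 of the 2 siRNAs that the study's methods list for NONO. Of all 20371 genes with a coding sequence, 13.7% held this word at least once on the coding strand, against 76 of 181 members (42.0%). It occurred 198 times in the members, and 134 of these (67.7%) fell on the codons of the linker between fingers. The 27-base stretches around 1 occurrence in NONO itself and in the 4 members with the most occurrences (chosen after these counts were seen) are given 5′ to 3′ on the coding strand, with the word in capitals. They lie at chrX:71294326-71294352 (plus strand, exon 5 of NONO) and at chr19:52067008-52067034, chr19:53069504-53069530, chr19:53141954-53141980 and chr19:52801025-52801051 (minus strand, last exon) in GRCh38.
NONO: cttacagttcGAAACCTtcctcagtat
ZNF841: atactacagaGAAACCTtacagatgca
ZNF160: atactggagaGAAACCTtacaagtgta
ZNF347: atactaaagaGAAACCTtacaaatgtt
ZNF28: acattgatgaGAAACCTtacaagtgta
The word occurred once in the coding sequence of NONO, 12 times in ZNF841, 11 times in ZNF160, 9 times in ZNF347 and 8 times in ZNF28.

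The targeted genes followed the labels in all 12 libraries. NONO stood at 391, 358 and 369 CPM (counts scaled to library size) in its NC libraries and at 61.8, 64.3 and 61.9 in the knockdown, a fall of 2.57 on the log2 scale (edgeR quasi-likelihood test, adjusted p = 1.2e-10). PKM stood at 2276, 2211 and 2324 CPM against 218, 228 and 234 after PKM2 knockdown, a fall of 3.32 (edgeR, adjusted p = 7.0e-12). The line's markers VIM, CD44, EGFR, KRT18, CAV1 and FOSL1 were expressed in both NC groups (mean TPM of 74.8 for EGFR to 3787 for VIM), the receptors ESR1 and PGR averaged at most 0.157 TPM, and among markers of other cells CD3E and CDH1 were at 0 TPM in both NC groups. Group means of PTPRC, CDH5 and PECAM1 in NC were at most 1.86 TPM. ERBB2 was present at 30.8 and 26.7 TPM, and the epithelial marker EPCAM at 3.30 and 2.94 TPM. Libraries of the NONO experiment were shallower, at 19861762 to 20981712 estimated counts, than those of the PKM2 experiment, at 24097948 to 28455268.

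In the NC cells, most members were modestly expressed. Their median level was 11.6 TPM in the NONO experiment and 11.1 TPM in the PKM2 experiment, and 33 of 181 exceeded 20 TPM in both. The 5 highest by mean NC TPM were ZNF706, ZNF207, ZNF639, ZNF593 and ZNF511, and ZNF706 led with 127, 135 and 125 TPM in the NC libraries of the NONO experiment and 164, 142 and 138 in those of the PKM2 experiment. ZNF207, also called BuGZ, which escorts the checkpoint protein BUB3 to kinetochores, came next at 121, 106 and 108 TPM and at 109, 104 and 105 TPM. None of these 5 carries KRAB, and all but ZNF639 (9 fingers) have at most 3 fingers. The TPM of ZNF706 and ZNF207 did not overlap in the NONO experiment, but ZNF639 at 98.6, 85.6 and 86.0 TPM and ZNF593, a factor of ribosome maturation, at 94.5, 83.1 and 69.8 TPM overlapped each other. All exonic bases of ZNF593 lie opposite an exon of another gene, AL391650.1, and the libraries' strandedness is not stated, so its level is uncertain. Summed over all members, expression was 3298 ± 24.3 TPM (SD, n = 3) in the NC libraries and 3202 ± 3.56 after NONO knockdown, and 3074 ± 77.1 against 3348 ± 150 after PKM2 knockdown. Summed in CPM, the NONO experiment gave 5937, 5801 and 5818 in NC and 6035, 6028 and 6044 after knockdown. The PKM2 experiment gave 5616, 5791 and 5549 against 6709, 6645 and 6398. The direction of the sum after NONO knockdown thus depended on the scale.

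After NONO knockdown, 38 members rose and 27 fell at an adjusted p under 0.05 (edgeR, adjusted over 14832 genes), or 21.0% and 14.9% of the members. Over all genes tested 16.2% rose and 17.2% fell, and at the same TPM level 21.2% and 19.5%. The median log2 fold change of the members was 0.01, against -0.01 over all genes. Under the study's own rule of a fold change over 2 with an unadjusted p under 0.05, 1 member rose (0.789% of all genes did) and 3 fell (2.16% of all genes). In 90 of 181 members the knockdown and NC libraries did not overlap in CPM. No share over all genes is given for this, so it is not read as particular to the members. Changes were small, since 177 members stayed within 1 log2 unit. The counts of called members depend on the scale. With limma on log2(TPM + 1), where the median of all genes lies 0.05 lower, 5 members were called raised and 20 lowered. Without NONO_KD replicate 2, or without replicate 3, the count of raised members fell to 24.

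ZNF267, a KRAB gene on chromosome 16, rose most. Its CPM were 14.2, 11.7 and 10.7 in the NC libraries and 25.6, 24.8 and 26.6 after NONO knockdown, a log2 fold change of 1.08 ± 0.10 (SE; edgeR, adjusted p = 2.0e-05). ZNF664 on chromosome 12 followed, with 75.3, 69.2 and 71.1 CPM against 132, 144 and 142 (0.95 ± 0.05, adjusted p = 3.3e-07 by edgeR). In both genes every knockdown library lay above every NC library. The next rises were between 0.49 and 0.64 in ZNF227, ZNF626, ZNF675, ZNF84, ZNF521 and ZNF205, all with groups that did not overlap. ZNF675 (TIZ) is known as an inhibitor of TRAF6 signalling and ZNF521 as a cofactor of blood and neural progenitors. All but ZNF664 and ZNF521 of these 8 carry KRAB.

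ZNF771 fell most among the called members, from 15.9, 10.8 and 9.96 CPM to 6.98, 5.59 and 4.78 (log2 fold change -1.07 ± 0.19, edgeR adjusted p = 0.0014). ZNF804A, best known as a locus of genetic risk for schizophrenia, fell from 32.6, 22.1 and 26.6 CPM to 13.3, 13.8 and 13.4 (-1.004 ± 0.13, adjusted p = 0.00013 by edgeR). ZNF580 went from 38.9, 33.5 and 32.999 CPM to 22.1, 20.2 and 16.1 (-0.85 ± 0.11, adjusted p = 0.00017 by edgeR). For these 3 genes, none of which carries KRAB, each NC library exceeded each knockdown library. ZNF23, ZNF480, ZNF614, ZNF28 and ZNF789, all KRAB genes, fell by 0.62, 0.52, 0.50, 0.48 and 0.48 on the log2 scale. On log2(TPM + 1) the difference of ZNF28 was -0.04 (limma, adjusted p = 0.96), with 10.3, 12.9 and 10.3 TPM in NC and 7.72, 23.0 and 6.83 after knockdown, so its fall was seen on counts and not on TPM. Of the 100-base windows of ZNF23, 97.4% also occur in a read-through gene, AC010547.4, so its counts may be shared. ZNF320 showed the lowest log2 value of all members (-1.33 ± 0.48) but was not called (edgeR, adjusted p = 0.0505), with 1.20, 4.24 and 7.24 CPM in NC and 1.90, 1.63 and 1.53 after knockdown. Its groups overlap, and 99.5% of its windows occur in transcripts annotated to ZNF468.

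**Figure D1:**
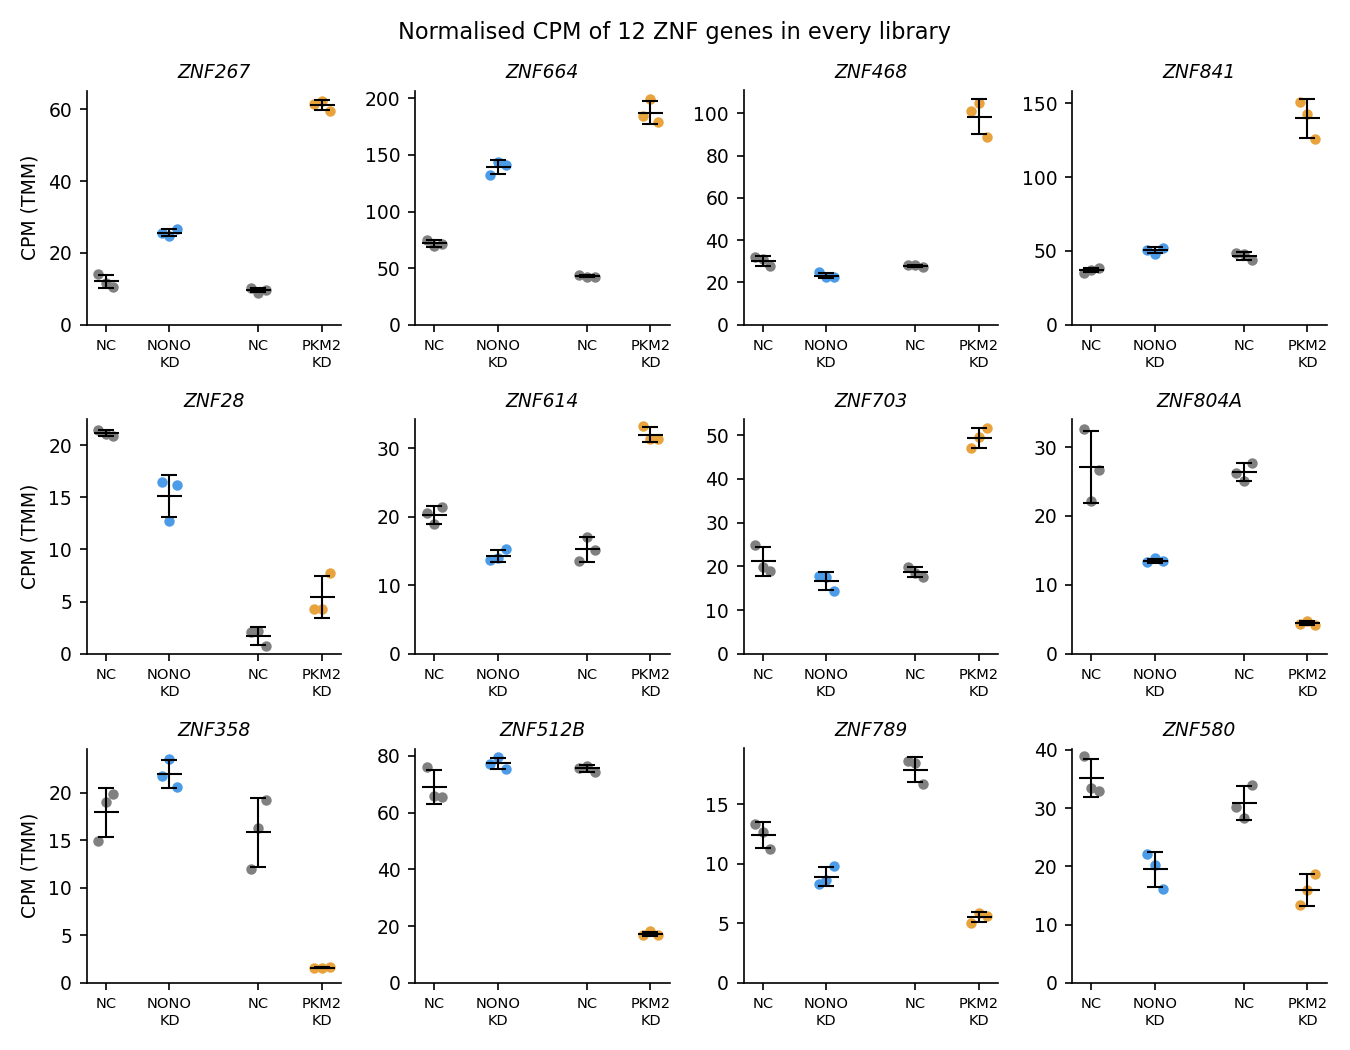
Normalised CPM (y axis, from 0, TMM-scaled within each experiment) of 12 members in the 12 libraries, grouped on the x axis as NC and NONO knockdown and as NC and PKM2 knockdown. Points are libraries and bars the mean ± SD (n = 3). ZNF267 and ZNF664 are higher in every knockdown library of both experiments, ZNF804A lower, and ZNF468 and ZNF614 lower after NONO and higher after PKM2 knockdown.

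After PKM2 knockdown 77 members rose and 51 fell at the same threshold, or 42.5% and 28.2% (edgeR, adjusted over 15524 genes), where 33.6% of all genes rose and 34.7% fell. At the same TPM level 40.03% of genes rose and 36.8% fell. Under the study's rule 14 members rose (7.05% of all genes) and 8 fell (13.8% of all genes). The median log2 fold change was 0.05 (all genes, -0.01). The libraries of the 2 groups did not overlap in 133 members, again with no share over all genes to set beside it. Because NC levels chose the members, a gene that is low in NC and high after knockdown could be missed. When members were instead taken by their knockdown TPM (171 genes), 91 rose and 31 fell, and by the mean over all libraries (178 genes), 85 rose and 44 fell. Choice by knockdown TPM takes in genes that rose and leaves out genes that fell, so its counts follow in part from the choice. No share over all genes under these choices is given. With limma on log2(TPM + 1), a scale on which the median of all genes lies 0.11 lower, 52 rose and 54 fell, so the balance of rises and falls depended on the scale.

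ZNF267 again rose most, from 10.2, 8.98 and 9.74 CPM to 61.6, 62.3 and 59.5, a 6.33-fold higher level (log2 fold change 2.66 ± 0.07, edgeR adjusted p = 1.1e-10). ZNF664 went from 43.9, 42.3 and 42.3 CPM to 184, 199 and 179 (2.13 ± 0.06, adjusted p = 1.2e-10 by edgeR). ZNF468 went from 28.2, 28.1 and 27.2 CPM to 101, 105 and 89.0 (1.82 ± 0.07, adjusted p = 1.2e-09 by edgeR). In each case the lowest knockdown library was well above the highest NC library. Counts of ZNF468 may include reads of ZNF320, since 99.5% of the windows of ZNF320 occur in transcripts annotated to ZNF468. ZNF841, ZNF721, ZNF367 and ZNF703 rose by 1.58, 1.52, 1.41 and 1.40 log2 units, and ZNF703, amplified in luminal breast tumours where it acts as a transcriptional corepressor, went from 19.9, 18.6 and 17.5 CPM to 47.0, 49.6 and 51.6. ZNF28 also rose, by 1.70 ± 0.36 (edgeR, adjusted p = 0.0012), but from 2.12, 2.22 and 0.706 CPM to only 4.31, 4.26 and 7.77. Its NC level of 1.68 ± 0.85 CPM compares with 21.1 ± 0.27 in the other experiment, while its NC TPM were 7.53 and 11.2, and ZNF28 and ZNF320 were the 2 members whose NC CPM differed over 4-fold between the tables. The difference of ZNF28 on log2(TPM + 1) was 0.37 (limma, adjusted p = 0.32).

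The deepest fall was that of ZNF358, from 11.98, 16.3 and 19.2 CPM to 1.58, 1.55 and 1.67, or 9.87-fold (log2 fold change -3.30 ± 0.19, edgeR adjusted p = 3.3e-08). Of its windows, 17.4% occur in another gene, AC008878.1, and 14.2% of its exonic bases lie opposite an exon. ZNF804A fell from 26.2, 25.1 and 27.7 CPM to 4.31, 4.73 and 4.201 (-2.58 ± 0.09, adjusted p = 8.4e-10 by edgeR), its second fall in these data. ZNF512B fell from 75.9, 76.5 and 74.2 CPM to 16.9, 18.1 and 16.8 (-2.13 ± 0.06, adjusted p = 1.8e-10 by edgeR), a change that leaves both groups tight and far apart. ZNF789, ZNF48, ZNF318, ZNF282 and ZNF398 fell by 1.70, 1.47, 1.40, 1.02 and 1.001. ZNF318 is known for its role in IgD expression in B cells, and ZNF282 as a protein that binds the HTLV-1 long terminal repeat. ZNF512B, ZNF48, ZNF318, ZNF282 and ZNF398 were not called after NONO knockdown, with log2 values between -0.15 and 0.16.

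After PKM2 knockdown 2 members were called in opposite directions on counts and on TPM. ZNF480 fell on counts after PKM2 knockdown (26.5, 26.8 and 23.9 CPM to 14.5, 15.7 and 16.5, log2 fold change -0.73 ± 0.08), yet its TPM were 10.5, 8.78 and 8.48 in NC and 19.8, 28.2 and 25.9 after knockdown (log2(TPM + 1) difference 1.31, limma adjusted p = 0.00018). ZNF264 was called raised on counts (0.30 ± 0.10, edgeR adjusted p = 0.016) and lowered on TPM (-0.60, limma adjusted p = 0.037). Its call on counts was lost without NC_PKM2 replicate 3 (0.29), PKM2_KD replicate 1 (0.24) or PKM2_KD replicate 2 (0.26). The direction of both genes after PKM2 knockdown thus depended on the scale. Of the members called on counts, 3 of 128 after PKM2 and 1 of 65 after NONO knockdown had the opposite sign on log2(TPM + 1).

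The 2 experiments have separate NC libraries, so each member can be placed on both axes. Both knockdowns raised 24 members (13.3%, against 9.34% of 14525 genes tested in both) and lowered 10 (5.52%, against 9.93%). A further 8 fell after NONO and rose after PKM2 knockdown (4.42%, all genes 4.18%), and 7 rose after NONO and fell after PKM2 knockdown (3.87%, all genes 3.79%). In each experiment, genes at the members' TPM level were called more often in both directions than all genes tested. No share at that level is given for these joint calls, so they are not read as particular to the members. The remaining members were called in 1 experiment or, in 37 cases, in neither. Ordered by the smaller of their 2 absolute log2 fold changes, ZNF267, ZNF664, ZNF227 and ZNF675 came first among the shared rises and ZNF804A, ZNF580, ZNF480 and ZNF789 among the shared falls. ZNF480 is placed there by its counts, and its TPM rose after PKM2 knockdown. In the same order ZNF23, ZNF614, ZNF28 and ZNF611 came first among the opposite calls, each lower after NONO and higher after PKM2 knockdown on counts. ZNF614 shows the pattern on steady counts, with 20.5, 18.9 and 21.4 CPM against 13.7, 13.98 and 15.3 in the NONO experiment and 13.5, 17.0 and 15.2 against 33.2, 31.3 and 31.3 in the PKM2 experiment. ZNF611 had log2 fold changes of -0.46 ± 0.12 and 0.54 ± 0.07, and its NONO call was lost without NONO_KD replicate 2 (-0.42) or replicate 3 (-0.38). All 7 members that rose after NONO and fell after PKM2 knockdown lack a KRAB entry, whereas 6 of the 8 with the reverse pattern have it. A missing entry does not show that the protein lacks the domain.

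**Figure D2:**
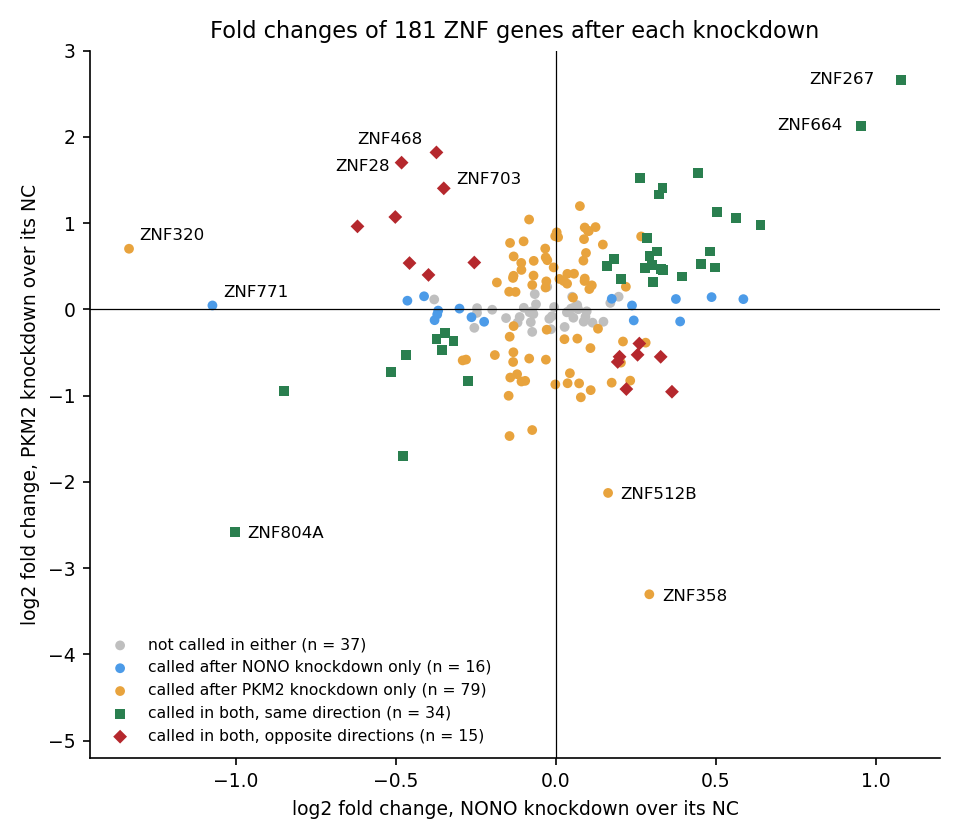
Log2 fold change of each of the 181 members after NONO knockdown (x axis) and after PKM2 knockdown (y axis), each over its own NC libraries (edgeR). Colour and shape give the call at an adjusted p under 0.05, with 34 members called in the same direction in both experiments, 15 in opposite directions and 37 in neither.

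The difference between the knockdowns was tested itself, as the PKM2 log2 fold change minus the NONO log2 fold change over all 12 libraries. The 2 deposited tables were made with different annotation releases, so reads of overlapping genes may have been assigned differently in the 2 experiments. The part of this in the differences was not tested. It was positive for 61 members (33.7%, against 25.7% of all 15995 genes tested) and negative for 43 (23.8%, against 27.4%). Of 10094 genes tested at the same TPM level, it was positive for 3300 and negative for 3252. All 15 members with opposite calls were called in this test. ZNF468 and ZNF28 had the largest positive differences, at 2.18 ± 0.11 and 2.18 ± 0.36, followed by ZNF320 (2.03), ZNF703 (1.74) and ZNF267 (1.57). NC CPM of ZNF28 and ZNF320 differed over 4-fold between the tables. Of the windows of ZNF320, 99.5% occur in transcripts annotated to ZNF468, so counts of these genes may be shared. ZNF358 had the largest negative one (-3.61 ± 0.23), followed by ZNF512B (-2.30), ZNF804A (-1.59), ZNF318 (-1.34) and ZNF48 (-1.34). ZNF267 and ZNF804A thus moved the same way in both experiments but by different amounts. ZNF703 was lower after NONO knockdown by 0.35 ± 0.12 (edgeR, adjusted p = 0.047), a call lost without NC_NONO replicate 1 (-0.21) or any 1 NONO_KD library (-0.41, -0.39 and -0.25).

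Members with known functions were described in 3 groups by role. Of 14 members known to act at promoters or enhancers, 5 rose and 1 fell after NONO knockdown, and 6 rose and 4 fell after PKM2 knockdown. These are 35.7% and 7.14% after NONO knockdown and 42.9% and 28.6% after PKM2 knockdown, with median log2 fold changes of 0.13 and 0.10. All genes at the same TPM level gave 21.2% and 19.5%, and 40.03% and 36.8%, with medians of 0.01 and 0.03. ZNF143, an activator of many promoters including those of small RNA genes, stood at 24.9, 26.6 and 27.3 CPM in NC and at 56.2, 55.2 and 50.9 after PKM2 knockdown (log2 fold change 1.04 ± 0.06, edgeR adjusted p = 5.2e-08), and its NONO value was -0.08. Its paralog ZNF76 rose by 0.51 after PKM2 knockdown. ZNF410, which activates CHD4, rose by 0.28 and 0.83, though 74.5% of its windows occur in AC005520.1. ZNF202, a repressor of lipid genes with KRAB and SCAN domains, rose by 0.45 and 0.52, and ZNF148 (ZBP-89) rose by 0.24 after NONO knockdown. ZNF384, a partner in leukaemia fusions, fell by 0.87 after PKM2 knockdown, and ZNF395, ZNF219 and ZNF24 fell by 0.85, 0.53 and 0.35. ZNF217, an oncogene amplified in breast tumours, was steady at 71.5, 80.1 and 69.9 CPM against 82.1, 73.1 and 70.5 (log2 fold change 0.03 ± 0.07, edgeR adjusted p = 0.75).

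Among 8 members known from chromatin complexes, 4 rose after NONO knockdown, and 4 rose and 2 fell after PKM2 knockdown (medians 0.08 and 0.16). Over all genes tested 16.2% rose and 17.2% fell in the former and 33.6% rose and 34.7% fell in the latter. ZNF274, which brings SETDB1 to the ZNF gene clusters themselves, went from 40.9, 44.4 and 40.5 CPM to 64.3, 60.5 and 61.1 after PKM2 knockdown (log2 fold change 0.56 ± 0.06, edgeR adjusted p = 4.6e-06), and its NONO value was -0.07. ZNF644, a partner of the H3K9 methyltransferases G9a and GLP, rose by 0.39. ZNF592, a subunit of the ZMYND8 module, and ZNF827, which recruits NuRD to telomeres, fell by 0.55 and 0.61 after PKM2 knockdown and rose by 0.20 and 0.19 after NONO knockdown. ZNF93, a KRAB protein that binds LINE-1 elements, rose by 0.40 and 0.38. The NONO rises of ZNF592, ZNF827 and ZNF93, and of ZNF638, ZNF106, ZNF207, ZNF219 and ZNF76, were lost when NONO_KD replicate 2 was left out (values between 0.18 and 0.31), and several also without another library.

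The 13 members known from RNA, ribosome, spindle or protein modification biology included 3 that rose and 1 that fell after NONO knockdown, and 8 that rose and 2 that fell after PKM2 knockdown (medians 0.06 and 0.25), beside the same shares over all genes. ZNF622, a factor of late ribosome maturation, went from 55.4, 57.8 and 54.3 CPM to 125, 124 and 136 after PKM2 knockdown (log2 fold change 1.20 ± 0.06, edgeR adjusted p = 5.0e-09), while its NONO value was 0.07 and not called. ZNF330, a nucleolar protein, rose by 0.79 and ZNF598, the ubiquitin ligase that marks collided ribosomes, by 0.41 after PKM2 knockdown. ZNF207 rose by 0.35 and ZNF106 by 0.58 in that experiment. ZNF346, which binds double-stranded RNA, fell by 0.34 after PKM2 knockdown. ZNF385A, a partner of p53, fell by 0.53 after PKM2 and by 0.47 after NONO knockdown, the latter call being lost without NC_NONO replicate 3 (-0.36), NONO_KD replicate 1 (-0.44) or replicate 2 (-0.42). ZNF451, a SUMO ligase, stood at 75.3, 76.3 and 72.0 CPM in NC and 73.2, 77.1 and 69.0 after PKM2 knockdown (-0.03 ± 0.06).

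Features that the rule did not use divided the members unevenly, and these splits are descriptions without a test. After PKM2 knockdown, 35 of the 72 members on chromosome 19 rose and 14 fell (median log2 fold change 0.21), against 42 and 37 of the 109 on other chromosomes (median 0.00). These are 48.6% and 19.4%, against 38.5% and 33.9%. At the same TPM level 40.03% of all genes rose and 36.8% fell. Of 53 KRAB members of chromosome 19, 27 rose and 7 fell (50.9% and 13.2%), and of 34 elsewhere 9 rose and 13 fell (26.5% and 38.2%). Of 37 members with 14 or more fingers, 22 rose and 4 fell (59.5% and 10.8%, median 0.33). Of 53 members with 4 to 8 fingers, 20 rose and 21 fell (37.7% and 39.6%, median 0.00). GC content of the transcript moved with these features. Its median was 43.9% in members that rose and 54.1% in members that fell. The 61 members of lowest GC content held 32 rises and 8 falls (52.5% and 13.1%), and the 61 of highest 17 and 30 (27.9% and 49.2%). With the trend of all genes with GC content taken out, the PKM2 medians were 0.20 on chromosome 19 and 0.01 elsewhere, and 0.29 for members with 14 or more fingers.

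After NONO knockdown the splits by chromosome, number of fingers and GC content were flatter, but that by KRAB was not. KRAB members counted 16 rises and 17 falls after NONO knockdown, and 36 and 20 after PKM2 knockdown. Members without KRAB counted 22 rises and 10 falls after NONO knockdown, and 41 and 31 after PKM2 knockdown. The NONO shares were 18.4% and 19.5% with KRAB, and 23.4% and 10.6% without it. The chromosome 19 run from ZNF175 to ZNF331, described below, held 8 of the NONO falls, all in KRAB members. Chromosome 19 held 14 rises and 12 falls after NONO knockdown, and the other chromosomes 24 and 15. Members with SCAN showed 1 rise and 1 fall among 11 after NONO knockdown, and 3 rises and 2 falls after PKM2 knockdown.

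A run of neighbouring genes on chromosome 19 departed from the other members, at chr19:51571298-53580269 (GRCh38), from ZNF175 to ZNF331. Members no more than 500 kb apart were joined, and this run held 15 members. After NONO knockdown 8 of the 15 fell and 1 rose (median log2 fold change -0.37), and after PKM2 knockdown 9 rose and 2 fell (median 0.54), and the difference between the knockdowns was positive in 9. ZNF614, ZNF611, ZNF28 and ZNF468 fell in the first and rose in the second, ZNF841 rose in both, and ZNF480 fell in both on counts but rose on TPM after PKM2 knockdown. Coding sequences of the run held between 1 and 12 GAAACCT words, with a median of 7, and 12 of the 17 members with 4 or more words lay in it. Each of the other runs of at least 5 members on chromosome 19 held at most 1 fall after NONO knockdown. In the run from ZNF317 to ZNF562, all 5 members rose after PKM2 knockdown (median 0.71) and 2 rose after NONO knockdown (median 0.10), and their coding sequences held at most 2 words.

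Ordered by word count, members without the word had a median log2 fold change of -0.00 after NONO knockdown (n = 105), those with 1 word 0.12 (n = 41), those with 2 or 3 words 0.04 (n = 18) and those with 4 or more words -0.30 (n = 17). In the last group 8 fell and 3 rose. Over all genes tested, the 72 with 4 or more words, which include these 17 members, had a median of -0.16, with 24 falls and 7 rises. The 10587 genes without the word had a median of -0.01. In the PKM2 experiment, whose listed siRNAs have other words at these bases, the same 4 groups of members had medians of 0.02, 0.03, 0.10 and 0.54. All genes with 4 or more words, these members included, had a median of 0.53. The groups with many words therefore stood apart from the other genes in both experiments, in opposite directions.

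Word number and place in the run cannot be told apart for most of these genes. The 12 members with 4 or more words inside the run had a NONO median of -0.34 and 6 falls against 1 rise. The 5 outside it (ZNF189, ZNF23, ZNF519, ZNF544 and ZNF721, listed after the counts were seen) had a NONO median of -0.14, 2 falls and 2 rises, and a PKM2 median of 0.47. The 3 run members with fewer words had a NONO median of -0.38. Among members with 14 or more fingers, the 10 with 4 or more words had medians of -0.22 after NONO and 0.63 after PKM2 knockdown, and the 27 with fewer words 0.04 and 0.32. ZNF841, with the most words of all members, rose after NONO knockdown from 35.4, 37.1 and 38.6 CPM to 50.9, 48.2 and 52.1 (log2 fold change 0.44 ± 0.06, edgeR adjusted p = 0.00023). ZNF721, with 7 words, rose by 0.26, a call lost without NC_NONO replicate 3 (0.25), NONO_KD replicate 1 (0.26) or replicate 3 (0.24). With the trend with GC content taken out, the medians of the 17 members with 4 or more words were -0.33 and 0.47. In 3′ untranslated regions of all genes tested, the NONO medians were 0.00 without the word (n = 11064), -0.09 with 1 (n = 1255), -0.15 with 2 or 3 (n = 219) and -0.18 with 4 or more (n = 16). For ATTGAGA, the word of the other listed NONO siRNA, they were -0.01 (n = 11095), -0.01 (n = 1207), -0.02 (n = 245) and -0.20 (n = 7). The length of these regions was not taken into account. The part of pairing with an siRNA in these values was not tested.

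In coding sequences, the words that pair with the other listed siRNAs were held by smaller shares of the members than of all genes. ATTGAGA, for the other NONO siRNA, occurred in 17 members (9.39%) and in 11.0% of all genes with a coding sequence. CTCACCA and CCTCACC, for the PKM2 siRNAs, which overlap each other in all but an end letter, occurred in 27 and 26 members (14.9% and 14.4%) and in 17.6% and 20.1% of all genes. In 3′ untranslated regions the order was the reverse, with ATTGAGA in 11.6% of members and 9.43% of genes, CTCACCA in 11.05% and 9.16%, and CCTCACC in 14.9% and 12.1%. All words were searched on the coding strand only. Over all genes tested, those without CTCACCA in the coding sequence had a median PKM2 log2 fold change of 0.05. Those with 1 such word had -0.28 (n = 1921, 417 rises and 1002 falls), those with 2 or 3 -0.57 (n = 406) and those with 4 or more -1.08 (n = 22). The 25 members with 1 such word had a median of -0.11 (6 rises and 11 falls), and the 154 without it 0.12 (71 rises and 38 falls). GC content was not taken into account here, and the part of this word in the PKM2 values was not tested either.

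Genes of the corepressor machinery that KRAB proteins use were expressed throughout. Of the 27 genes listed, 11 rose and 4 fell after NONO knockdown, and 12 rose and 7 fell after PKM2 knockdown (medians 0.12 and 0.10). Their shares were 40.7% and 14.8%, and 44.4% and 25.9%, where genes at the same TPM level gave 21.2% and 19.5%, and 40.03% and 36.8%. TRIM28 itself averaged 436 CPM in NC of the NONO experiment and did not pass the test there (log2 fold change 0.04, edgeR adjusted p = 0.62), and rose by 0.18 after PKM2 knockdown. SETDB1, the H3K9 methyltransferase it recruits, rose by 0.30, and SUV39H1 by 0.99, after PKM2 knockdown. The HP1 gene CBX1 fell by 0.67 after NONO knockdown and rose by 0.27 after PKM2 knockdown, CBX3 fell by 0.36 in each, and CBX5 rose by 0.37 after NONO knockdown. TASOR, a subunit of the HUSH complex, rose by 0.43 after NONO and fell by 0.54 after PKM2 knockdown, and RESF1, a cofactor of SETDB1, rose by 0.85 after NONO knockdown. TRIM24, a relative of TRIM28, fell by 0.31 and 1.69, and HDAC2, UHRF1 and DNMT3A fell by 1.05, 0.84 and 0.98 after PKM2 knockdown. Of the remaining listed genes called after NONO knockdown, ATF7IP, CHD4, EHMT1, EHMT2, HDAC1, SUV39H2, TRIM33 and UHRF1 rose (0.13 to 0.48) and DNMT3A fell (-0.41). After PKM2 knockdown DNMT3B, EHMT2, HDAC1, MORC2, MORC3, PPHLN1, SUV39H2 and TRIM33 rose (0.15 to 0.78), and DNMT1 fell (-0.15).

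Other zinc finger genes gave a scale for the members. The ZNF genes under the TPM limit counted 28 rises and 21 falls among 259 tested after NONO knockdown (10.8% and 8.11%). After PKM2 knockdown they counted 112 rises and 47 falls among 260 (43.1% and 18.1%, median log2 fold change 0.27). Over all genes tested 16.2% rose and 17.2% fell after NONO knockdown, and 33.6% rose and 34.7% fell after PKM2 knockdown. Of 37 ZBTB genes, which pair fingers with a BTB domain, 12 rose and 15 fell after PKM2 knockdown, and of 24 KLF and SP genes tested 11 rose and 10 fell. ZSCAN and ZKSCAN genes counted 9 rises and 3 falls of 22, and ZFP genes 5 and 2 of 14. After NONO knockdown these families counted 9 rises and 6 falls (ZBTB), 7 and 1 (KLF and SP, of 23), 2 and 3 (ZSCAN and ZKSCAN) and 1 rise (ZFP, of 14).

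Reads of several members could belong to other genes. In 18 members over 10% of the 100-base windows also occur in transcripts of another gene, and in 34 over 10% of exonic bases lie opposite an exon on the other strand. Among genes named above, reads of ZNF395 (41.1% of windows, with FBXO16), ZNF511 (21.5%) and ZNF207 (17.3%) could be shared, and exons of ZNF511 (32.8%), ZNF384 (31.9%), ZNF219 (21.98%), ZNF410 (20.9%), ZNF227 (19.1%), ZNF205 (17.1%), ZNF804A (12.1%), ZNF771 (11.8%), ZNF598 (10.7%) and ZNF48 (10.2%) overlap an exon of the other strand. Their part in the results was not tested. Without these genes 132 members remained, of which 32 rose and 20 fell after NONO knockdown and 58 rose and 36 fell after PKM2 knockdown.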

How the data were processed

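Poly(A)-selected RNA of 12 MDA-MB-231 libraries was sequenced as paired 150-base reads. The authors deposited, per gene and library, estimated counts, which were rounded here, and TPM values. The submitters' notes name fastp, HISAT2, StringTie, RSEM and hg19, without versions or roles. The deposited tables also hold the authors' fold changes and p-values, which were not used. Columns were assigned to libraries by table, and every per-sample column was used. Per experiment, edgeR 4.0.16 (TMM, filterByExpr, quasi-likelihood F test, no replicate block) compared knockdown with NC over all genes, with Benjamini-Hochberg adjustment. The difference between knockdowns was an interaction over 12 libraries, with the 2 tables, made with different annotation releases, joined by gene identifier. Normalised CPM are TMM-scaled. SE is the log2 fold change divided by the root of F. limma 3.58.1 on log2(TPM + 1) and DESeq2 1.42.0 were alternatives. Steps were tested on simulated data. Same-numbered libraries did not deviate together (correlations -0.065 to 0.036). Replicates differed by more than counting noise (chi-square per degree of freedom 2.38 to 13.4, highest for pairs with PKM2_KD replicate 3 and NC_NONO replicate 1).

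Members and lists were chosen with earlier results of these data known. Named genes were, per experiment, the 8 largest called rises and falls, then the 5 largest differences each way, 4 in each class called in both, 5 highest NC levels, 3 on each side of the TPM limit, the role lists and the corepressors called. Gene positions, coding sequences, fingers and words come from GENCODE 29 on GRCh38, 1 transcript per gene with the longest coding sequence, joined by gene identifier.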

Additional observations from a re-analysis of the deposited data

Results flagged for a closer look

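For each gene below the effects of the 2 knockdowns differed by the interaction test (edgeR, adjusted p under 0.05). Values are the PKM2 log2 fold change minus the NONO log2 fold change, and no explanation was tested. Positive differences were found for ZNF468 (2.18), ZNF28 (2.18), ZNF320 (2.03), ZNF703 (1.74), ZNF267 (1.57), ZNF23 (1.57), ZNF614 (1.56) and ZNF611 (0.98). Negative differences were found for ZNF358 (-3.61), ZNF512B (-2.30), ZNF804A (-1.59), ZNF318 (-1.34) and ZNF48 (-1.34). In all, 61 of 181 members had a positive and 43 a negative difference, beside 3300 and 3252 of 10094 genes at the same TPM level. Counts of ZNF320 (99.5% of windows in another gene), ZNF23 (97.4%) and ZNF358 (17.4%) may be shared with other genes. For ZNF320 the other gene is ZNF468, whose counts may thus include reads of ZNF320. NC CPM of ZNF28 and ZNF320 differed over 4-fold between the tables, which were made with different annotation releases. Groups of 3 libraries were too small to look for single outlying libraries gene by gene.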

How the results depend on the processing

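Counts of members are given as raised and lowered, and medians are log2 fold changes of all members. After NONO knockdown the median was 0.011, with 38 raised and 27 lowered. It was 0.018 with DESeq2 or RLE factors, 0.015 without the low-count filter, 0.022 with the trend with gene length and 0.026 with that with GC content taken out, -0.025 with limma on log2(TPM + 0.1) and -0.022 on log2(TPM + 1), with or without a filter. limma raised 6 (pseudocount 0.1), 5 (pseudocount 1) or 3 (no filter) and lowered 8 without a filter. The study's rule of fold change raised 1 and lowered 3. Members at an NC TPM of at least 2 gave 58 and 43 (median 0.030), those at 10 gave 19 and 13, those chosen by knockdown TPM a median of 0.051, those chosen over all libraries 0.031, and those without shared or opposite-strand sequence, an alternative chosen after seeing the data, 0.027. limma gave this for members after PKM2 knockdown: median log2 fold change -0.0069 (pseudocount 0.1) and -0.0063 (pseudocount 1, with or without a filter). It raised 46 without a filter, and in that experiment the study's rule raised 14 and lowered 8. Members at 2 TPM gave 148 and 83 (median 0.14), those at 10 TPM 38 and 30, those chosen by knockdown TPM lowered 31 (median 0.26), and those chosen over all libraries had a median of 0.15. Choice by knockdown TPM itself favours members that rose. The cause of these shifts was not tested beyond the number of members each choice holds.

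Among the 66 named members the direction turned in 3, all after PKM2 knockdown and on the TPM scale. Over all members, 1 called after NONO knockdown (ZNF875, named after its values were seen) also had the opposite sign on log2(TPM + 1), 0.37 on counts and -0.13 on TPM. ZNF264 went to -0.75 (pseudocount 0.1) and -0.60 (pseudocount 1, with or without a filter), ZNF480 to 1.39 and 1.31, and ZNF830 from 0.28 to -0.014 (pseudocount 0.1) and -0.013 (pseudocount 1, with or without a filter). The cause was not tested.

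With 1 library left out, NONO counts ranged from 24 to 43 raised and 19 to 28 lowered, with medians from 0.015 to 0.037. The 24 were found without NONO_KD replicate 2 and again without replicate 3. PKM2 counts ranged from 72 to 79 and 49 to 52, with medians from 0.027 to 0.094, and the differences from 58 to 67 positive and 40 to 45 negative. With the replicate block, counts were 35 and 24 (NONO), 75 and 52 (PKM2) and 61 and 43 (difference). Same-numbered libraries share only a number, so the pairing is not part of the design.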
